A study of Homo sapiens with 6 samples.

Results

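The small RNA table of this study holds a class of windows labelled DARK, which are set apart from the tRNA, protein-coding, lncRNA and other classes. All rows whose label starts with DARK_ were taken, which gave 659 of 53603 windows, each 400 bp long, or 1.23% of the table. The labels do not say what DARK stands for. The RNA was from HEK293T cells, an immortal line derived from human embryonic kidney. Cells received 150 nM of a control siRNA (siControl libraries) or of an siRNA against La (siLa libraries) for 48 h, with 3 biological replicates of each and 6 libraries in all. No other treatment separates the arms.

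La, the product of the SSB gene, is an RNA-binding protein that holds the uridine-rich 3′ end of new RNA polymerase III transcripts. By covering that end it shields precursors such as pre-tRNA from exonucleases and helps their folding and processing. RNA polymerase III makes tRNA, 5S rRNA, U6, 7SK, vault and Y RNA, and it ends transcription at a run of T in the non-template strand. The libraries allow small RNA counts to be compared between cells given the siRNA against La and cells given the control siRNA.

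The library totals over all windows ranged from 3066299 to 4105806 counts. A count of 0 in a window allows up to 3 counts, which is from 0.731 to 0.978 CPM, the count scaled to a common library total by the total over all windows. Of the SSB promoter windows, PCG_40419 had 4, 3 and 3 counts with siControl and 1, 0 and 0 with siLa, and the adjacent PCG_12982 had 0, 0 and 1 with siControl and 0, 2 and 0 with siLa. These windows count small RNA at start sites and do not measure the SSB mRNA.

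The DARK windows were placed against annotated genes. None of the 659 overlapped a small RNA gene of GENCODE release 29 or RefSeq by at least 20 bp, against 0.413% of the 22988 windows of protein-coding genes (95) and 0.327% of the 27547 lncRNA windows (90). Those shares are small as well, so the absence of overlap does not set DARK windows apart. For 6 DARK windows a small RNA gene lay within 1 kb, and the median distance to the nearest one was 171105 bp. Distances were not measured for the other classes. By GENCODE, 369 windows (56.0%) were intergenic, 228 (34.6%) lay in introns and 62 (9.41%) touched an exon. Genes of the protein-coding type were overlapped by 247 windows and lincRNA genes by 27. All 659 window starts fell on a grid of 50 bp, while 2.11% of the windows of the other classes did.

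One of the most read windows, DARK_82, starts beside a U1 gene, and the sequence of that gene is shown as its nearest annotated RNA. U1 is the snRNA that pairs with 5′ splice sites. DARK_82 (chromosome 1, positions 148522776 to 148523175) begins 10 bp beyond the 3′ end of RNVU1-27 (chr1:148522601-148522765, plus strand, GRCh38). The sequence is that of the GENCODE transcript, 5′ to 3′, and the last 10 bases, which face the window, are in capitals.
RNVU1-27: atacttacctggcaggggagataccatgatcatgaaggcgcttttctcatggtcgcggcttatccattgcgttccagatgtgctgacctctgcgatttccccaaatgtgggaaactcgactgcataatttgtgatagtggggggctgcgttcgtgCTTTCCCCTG

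Some DARK windows overlapped or lay in groups, while many stood alone. Overlapping windows merged into 608 regions, and 91 windows overlapped another DARK window, so a read in the shared part can count in both. With gaps of up to 100 kb joined, the windows formed 416 groups, of which 340 held 1 window and 16 held at least 5. The group with the most windows, 53 in number, ran from position 49092226 to 49156675 of chromosome 4 (GRCh38), and 2 of its windows had a read, with 3 counts in all. The 183 windows in groups of at least 5 held 27 counts in all 6 libraries together. A read was found in 10.9% of these grouped windows and in 19.96% of the other 476.

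Most DARK windows were unread at this depth and a pair of them held most of the reads. Summed over the 6 libraries, 1627 counts fell in DARK windows, of which 1335 (82.1%) were in DARK_360 and DARK_174. No count was found in 544 windows in any library, and 115 windows (17.5%) had at least 1. Of those 115, 66 had a single count, 24 had 2, 18 had from 3 to 9, and 7 had 10 or more. Only 3 windows, DARK_360, DARK_174 and DARK_82, had a read in all 6 libraries, while 76 were read in 1 library. The step down from these leading windows was steep, from 649 summed counts in DARK_174 to 48 in DARK_82 and 12 in DARK_334.

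**Figure D1:**
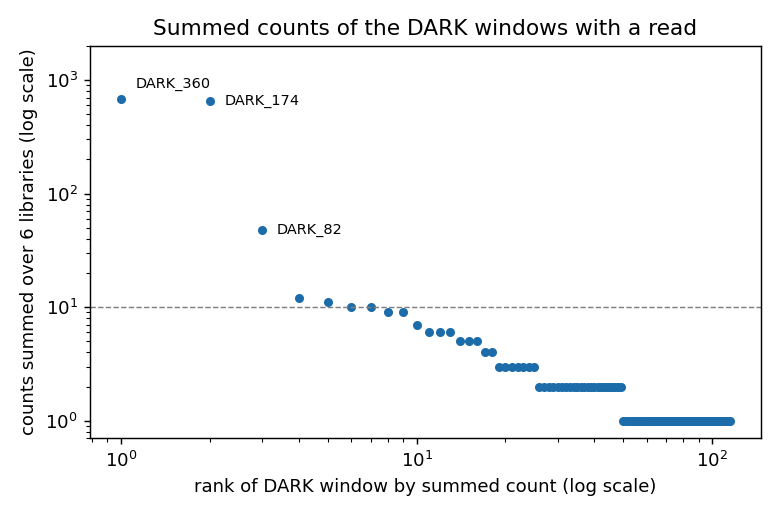
Counts summed over the 6 libraries for each of the 115 DARK windows with a read, ordered by rank, with log scales on both axes. Each point is a window, the dashed line marks 10 counts, and the points for DARK_360 (686) and DARK_174 (649) stand above DARK_82 (48) and the rest.

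Pooled over the class, the DARK counts were lower in the 3 siLa libraries. They came to 371, 338 and 394 for siControl replicates 1 to 3 and to 142, 178 and 204 for siLa replicates 1 to 3. In CPM by library total these were 90.4 (95% Wilson interval 81.6 to 100.03), 103.6 and 113 with siControl, and 46.3, 52.2 and 64.6 (56.3 to 74.1) with siLa. The mean was 102 ± 11.4 CPM with siControl and 54.4 ± 9.34 with siLa (SD, n = 3 each), a ratio of 0.531, and the arms did not overlap. DARK_360 and DARK_174 carried this difference. Together they held 332, 297 and 339 siControl counts and 94, 117 and 156 siLa counts, which was 87.8% ± 1.72 and 69.5% ± 6.07 of the DARK counts (SD, n = 3 each).

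The other 657 DARK windows were not lower. They held 39, 41 and 55 siControl counts and 48, 61 and 48 siLa counts. In CPM by library total this was 12.6 ± 3.14 with siControl and 16.2 ± 1.44 with siLa (SD, n = 3 each), a ratio of 1.29, and the arms overlapped. Among windows with too few reads to be tested, the ratio was 1.20 for the 27472 lncRNA, 1.25 for the 963 SRP RNA and 1.28 for the 22866 protein-coding windows. It ranged more widely in classes with fewer such windows, with 0.880 for 88 tRNA, 1.21 for 88 U6, 1.24 for 51 Y RNA, 1.74 for 14 rRNA and 1.91 for 47 7SK windows, and 0.218 for the single snAR window. These ratios are descriptions, and no test was made of the pooled values.

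**Figure D2:**
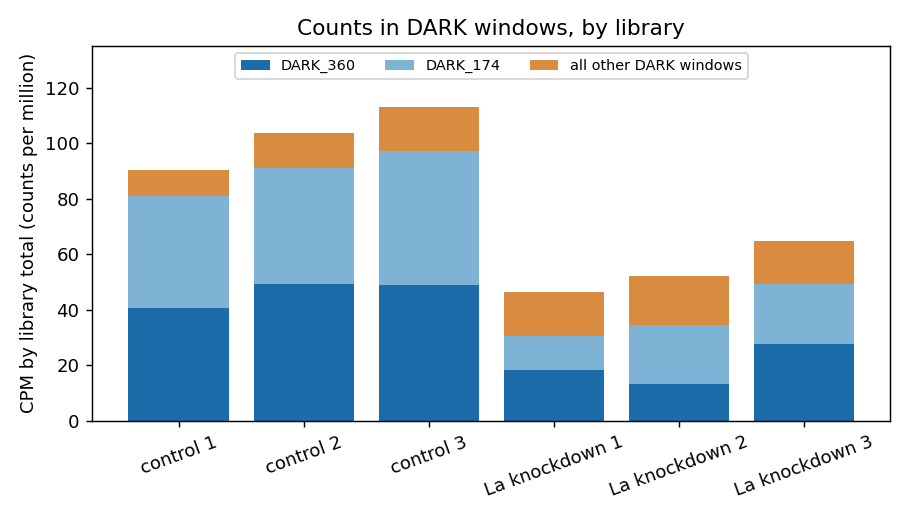
DARK window counts in CPM by library total, for 3 control and 3 La knockdown libraries (siControl and siLa). Each bar stacks DARK_360, DARK_174 and the other 657 windows; the bars run from 90.4 to 113 with siControl and from 46.3 to 64.6 with siLa, while the top segment stays between 9.50 and 17.9.

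DARK_174 was the DARK window called lower in the La knockdown arm. The edgeR fit over the whole table tested 1064 windows, of which 51 were lower (4.79%) and 7 higher (0.658%) at an adjusted p under 0.05. DARK_360 and DARK_174 were the 2 DARK windows with enough reads to pass the filter on low counts. Of these, edgeR called 1 lower and 0 higher. Without adjustment both had an edgeR p under 0.05 in the lower direction, among 151 of the 1064 tested windows. DESeq2 called both lower and 0 DARK windows higher, against 76 lower and 23 higher over the same 1064 windows. The class had 2 tested windows, too few to read its share of calls against the share in the table.

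DARK_174 lies on chromosome 11, positions 77642826 to 77643225 (GRCh38). GENCODE has no gene there, and the window overlaps the RefSeq gene LOC107984369. Its counts were 165, 136 and 169 for siControl replicates 1 to 3 and 38, 72 and 69 for siLa replicates 1 to 3. Every siControl library was above every siLa library, and siLa replicate 1 was the lowest. The CPM scaled by TMM factors fell from 42.2 ± 1.89 to 18.8 ± 4.52 (SD, n = 3 each), which the edgeR model fitted as a log2 fold change of -1.16 ± 0.28 (SE, adjusted p = 0.0408). The call was lost without siControl replicate 1, 2 or 3 and without siLa replicate 1 or 2, where the edgeR adjusted p ran from 0.0577 to 0.191, and with upper quartile factors (log2 fold change -0.85, edgeR adjusted p = 0.0680).

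Few reads were counted in the other windows near DARK_174, which cover a small part of the sequence around it. The nearest small RNA gene, an annotation named RF00019, lay 48425 bp away. The 4 other windows of the table within 60 kb held 25 counts in all, with 9 in the protein-coding window PCG_30522, which lay 4896 bp away.

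DARK_360 lies on chromosome 22, positions 37193726 to 37194125, in an intron of C1QTNF6 (ENSG00000133466.13), which encodes a secreted protein of the C1q and TNF related family. Its counts were 167, 161 and 170 for siControl replicates 1 to 3 and 56, 45 and 87 for siLa replicates 1 to 3. The siControl libraries were close to each other and all above the siLa libraries, of which replicate 3 was the highest. The mean TMM-scaled CPM was 44.9 ± 2.18 with siControl and 20.2 ± 7.05 with siLa (SD, n = 3 each). The fitted log2 fold change of -1.15 ± 0.31 (SE) did not pass the threshold (edgeR adjusted p = 0.0605). It passed with library size alone, without a filter, with the replicate block, with DESeq2 and without siLa replicate 3, where the edgeR adjusted p was 0.0225. Lower calls over the whole table rose as well, from 51 to 69 of 1064 windows with library size alone.

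Few reads were counted in the other windows near DARK_360 as well. The 4 other windows of the table within 60 kb held 3 counts in all, and the nearest small RNA gene, the 7SK pseudogene RN7SKP214, lay 138379 bp away. Where the arms' CPM did not overlap, 190 of the 1064 tested windows (17.9%) had the La knockdown arm lower, and both DARK windows were among them.

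Tested windows of the other classes give the scale for these values. Ordered from the most negative fold change, DARK_174 ranked 78 and DARK_360 ranked 80 of 1064, and 50 of the 446 tested tRNA windows were more negative than DARK_174. The median log2 fold change was -0.05 over all tested windows, -0.42 for tRNA windows and -2.18 for the 17 snAR windows. The median was 0.34 for protein-coding windows and 0.52 for lncRNA windows. By summed count DARK_360 ranked 594 and DARK_174 613 among the 53603 windows.

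**Figure D3:**
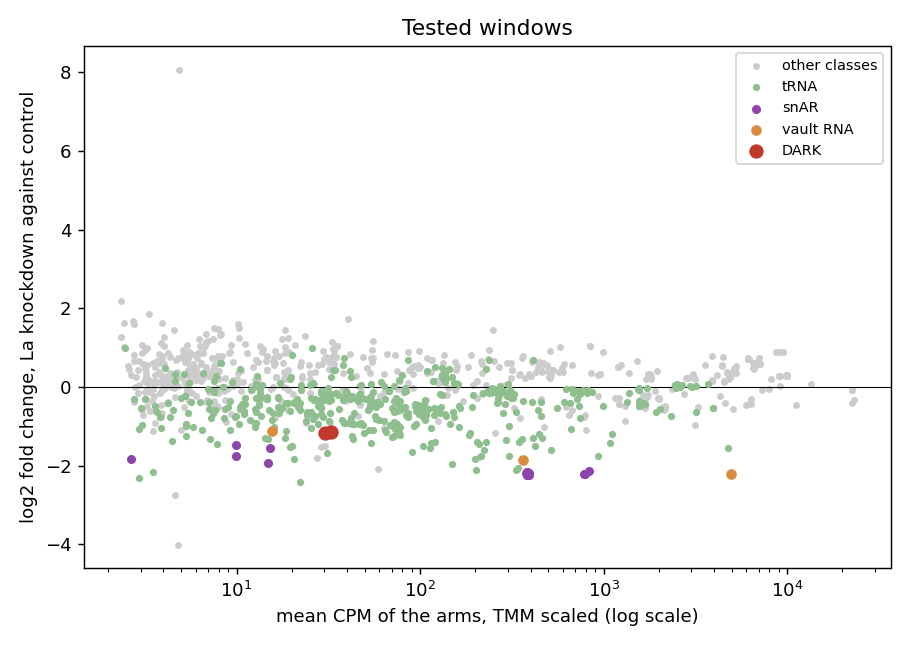
Log2 fold change of La knockdown against control (y axis) and mean CPM of the arms on a log scale (x axis) for the 1064 tested windows, with each point a window. The 2 DARK windows, at -1.16 and -1.15, lie below most tRNA windows and above every tested snAR window.

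The counts of the 2 windows were alike in total, 649 and 686, and similar in each arm. Across the 6 libraries a chi-square test between their counts gave 12.9 on 5 degrees of freedom (p = 0.0247, which covers counting error only). This test takes the reads of the 2 windows as independent, and the pair was chosen by its counts. Whether reads that align to both places were shared between them was not tested, since no genome sequence was used.

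The authors' deposited table called DARK_174 lower, as 1 of 659 DARK windows, with a log2 value of -1.43 (adjusted p 0.0372), against 80 lower calls in 53603 windows (0.149%). For DARK_360 the authors' deposited table gave -1.39 (adjusted p 0.0548). Of the other DARK windows, the authors' deposited table gave an unadjusted p under 0.05 for DARK_552 and DARK_587, each with 5 siLa counts and 0 siControl counts, and an adjusted p of 1. These 2 were picked out after their values were seen, and the share of all windows with such a p was not counted. In the edgeR fit without a filter, neither of these 2 had an unadjusted p under 0.05.

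DARK_82, the third most read window, had 10, 5 and 14 siControl counts and 8, 5 and 6 siLa counts. The arms overlapped, and the window had too few reads to be tested with the filter. Its CPM by library total was 2.66 ± 1.26 with siControl and 1.99 ± 0.577 with siLa (SD, n = 3 each). The U1 window that it overlaps by 75 bp, U1_51420, held 510 counts over the 6 libraries, so DARK_82 held 9.41% as many. A read in the shared part can count in both windows, and how many did so is not known. Without a filter on low counts the log2 fold change of DARK_82 was -0.58 (SE 0.58, edgeR adjusted p = 0.581).

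A tRNA gene beside a DARK window gave another picture. DARK_472, chosen after its values were seen, shares 68 bp with tRNA_53295, the window of the proline tRNA gene TRP-CGG2-1, and its first base lies 112 bp past the gene. The tRNA window held 2205 counts and DARK_472 held 4, or 0.181% as many. Over the class, 22 DARK windows overlapped a window of another class, in 14 cases of lncRNA, 6 of protein-coding genes, 1 of U1 and 1 of tRNA. There too a read in the shared part can count in both windows.

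The 4 remaining windows with at least 10 counts were read thinly and unevenly. DARK_334 (chromosome 21, positions 8229376 to 8229775) lies 10074 bp from the ribosomal RNA gene RNA45SN2, whose transcript gives rise to 18S, 5.8S and 28S rRNA. It had 1, 3 and 3 siControl counts and 2, 3 and 0 siLa counts, or 12 in all, while the 36 other windows within 60 kb held 3639110.

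DARK_500 (chromosome 6, positions 157310676 to 157311075), in an intron of TMEM242, had 2, 0 and 1 siControl counts and 1, 0 and 7 siLa counts, so 7 of its 11 counts came from 1 library. DARK_229 (chromosome 16, positions 87407626 to 87408025) lies in an untranslated part of an exon of ZCCHC14, with 1, 6 and 1 siControl counts and 0, 1 and 1 siLa counts. DARK_507 (chromosome 6, positions 170398776 to 170399175), in an intron of FAM120B, had 1, 1 and 0 siControl counts and 0, 3 and 5 siLa counts. In none of these 4 windows did the arms separate. Just under the limit of 10 counts were DARK_608 and DARK_610 with 9 each and DARK_139 with 7.

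The share of DARK windows with a read was low in each library. A read was found in 29, 30 and 30 windows for siControl replicates 1 to 3, and in 34, 41 and 30 for siLa replicates 1 to 3. In percent these ran from 4.40% (95% Wilson interval 3.08% to 6.25%) to 6.22% (4.62% to 8.33%). The means were 4.502% ± 0.0876 and 5.31% ± 0.845 (SD, n = 3 each), and siLa replicate 3 was at the level of siControl. With windows of at least 2 counts the numbers were 6, 7 and 13 with siControl and 11, 13 and 10 with siLa, which overlapped. The difference between the mean numbers with a read, 5.33 windows, was 2.33 without siLa replicate 2. The number expected at the depth of the shallowest library, 3066299 counts, ran from 23.0 to 28.6 with siControl and from 29.4 to 38.1 with siLa. That expectation was computed for DARK windows alone. Over all windows of the table, at full depth, the mean share with a read was also higher with siLa, though the arms overlapped. It was 15.1% ± 1.12 with siControl and 16.6% ± 1.39 with siLa (SD, n = 3 each).

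Windows of other classes of the same length were read more often. In the 6 libraries the share with a read ran from 6.48% to 8.49% for lncRNA windows, from 7.08% to 10.6% for SRP RNA windows, a class of 975 windows named for the RNA of the signal recognition particle, and from 19.97% to 26.3% for protein-coding windows. In every library the DARK share was below that of each of these classes. Among windows with too few reads to be tested, the mean count per window, summed over the 6 libraries, was 0.444 for DARK, 0.571 for SRP RNA, 0.762 for lncRNA and 2.65 for protein-coding windows. No test of the difference between classes was made.

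**Figure D4:**
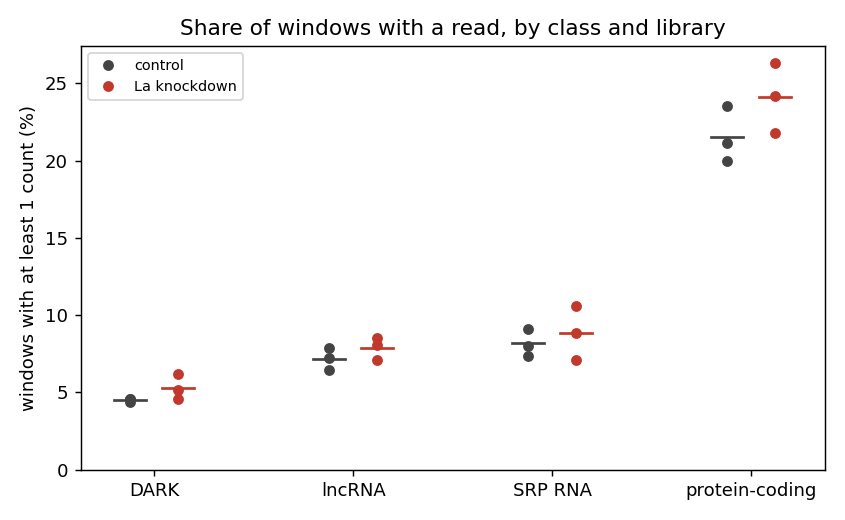
Percent of windows with at least 1 count in each library (points) for the DARK, lncRNA, SRP RNA and protein-coding classes, with short lines at the mean of the 3 libraries of an arm. DARK windows lie between 4.40% and 6.22%, below the other classes in every library.

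Exonic DARK windows were read more often than intergenic ones, a description without a test. A read was found in any library in 20 of 62 exonic windows (32.3%), 53 of 228 intronic windows (23.2%) and 42 of 369 intergenic windows (11.4%). Leaving out the 2 tested windows, the mean summed count was 1.0 in exonic, 0.463 in intronic and 0.340 in intergenic windows. Of the 115 windows with a read, 26 were read in both arms, 37 in the control arm alone and 52 in the La knockdown arm alone, mostly with 1 or 2 counts each. This split was not counted for the other classes, so it is not read as a trait of DARK windows. Over all windows of the table with too few reads to be tested, the ratio of siLa to siControl CPM by library total was 1.26. Small changes in the 657 sparse windows were not detectable at this depth.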

How the data were processed

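Small RNA libraries of the 6 samples were made from HEK293T cells with a mirVana PARIS kit, Antarctic phosphatase, T4 polynucleotide kinase and an NEBNext small RNA kit, per the labels' protocols. The submitters' processing notes name Trim Galore, Bowtie2, bedtools, edgeR and GRCh38 without roles or versions; use of strand and treatment of reads with several positions are not given in the sources used here. The first deposited table holds raw counts per window of 400 bp, per the file headers. The second holds the authors' log2 fold change, p-value and F statistic (a score) per window, per the file headers.

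Members were all windows whose label starts with DARK_. Members, named windows and lists were chosen with earlier results of these data known. All windows were fitted with edgeR 4.0.16 (R 4.3.3): filterByExpr defaults, TMM factors, quasi-likelihood test, arm as single term, Benjamini-Hochberg adjustment, threshold 0.05. The fit was tested on simulated data. The SE given with an edgeR log2 fold change was derived from the test, as its absolute value divided by the square root of F. Named windows were those tested and those with at least 10 counts summed over the 6 libraries, up to 25. Pooled values were divided by the library's total over all windows and given without a test. Shares have Wilson 95% intervals, which do not cover the spread between replicates. For pooled counts they take reads as independent, which could not be checked, since reads carried no molecular identifiers. For the share of windows with a read they take the 659 windows as independent, though 91 overlapped another DARK window. Gene annotation was GENCODE release 29 and the RefSeq GRCh38.p14 gene table, with an overlap of at least 20 bp. No genome sequence was used, so the motif searches that had been planned were not run. Alternatives were other scalings, filters and thresholds, DESeq2 1.42.0, a replicate block, other denominators, a common depth and leaving out each library. Library depth is given in the text. Figures were drawn with matplotlib 3.10.9.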

Additional observations from a re-analysis of the deposited data

How the results depend on the processing

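The call of DARK windows as lower in La knockdown rested on the settings. With all libraries 1 of 2 was called. The count was 0 at an adjusted p under 0.01 and with upper quartile factors. It was 2 of 2 with library size alone, the replicate block and DESeq2, and 2 of 115 without a filter. Over the fits without one library the count ran from 0 to 2. No setting called a DARK window higher (0 in each, with 0 at an unadjusted p under 0.05 in the edgeR fits with the filter). DARK_174 kept a log2 fold change from -1.41 to -0.85 and DARK_360 from -1.51 to -0.84 over the 13 alternatives. None of these 26 values changed direction. By adjusted p, whatever the size of the fold change, 15 kept their side of the threshold, 6 (all of DARK_174) no longer passed it and 5 (all of DARK_360) newly passed it.

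Over the whole table, lower windows, 51 with all libraries, became 1 at an adjusted p under 0.01, 104 of 21830 without a filter and 88 with the replicate block, and ran from 0 to 98 without one library. Higher windows, 7 with all libraries, became 0 at an adjusted p under 0.01, 4 without a filter, 58 by upper quartile scaling, 4 where the mean had to reach 20 counts, 20 with the replicate block and 23 with DESeq2, and ran from 0 to 21 without one library. Without La knockdown replicate 1, 103 lower and 72 higher windows had an unadjusted p under 0.05. The median over all tested windows went from -0.05 to 0.26 under upper quartile scaling. The cause of the other changes was not tested, apart from the stricter thresholds and the filters. Whether replicate numbers pair the libraries could not be settled. Deviations from the arm means correlated at 0.14, 0.23 and -0.46 for libraries with the same number. For libraries with unlike numbers the correlations ran from -0.51 to 0.50. Deviations within an arm of so few libraries depend on each other, so this check cannot decide. With the replicate block the log2 fold changes were -1.19 for DARK_174 and -1.20 for DARK_360 (edgeR adjusted p = 0.0338 and 0.0299). The pooled DARK share, a log2 ratio of -0.91, stayed from -1.06 to -0.72, and that of the other 657 windows, 0.36, ran from 0.20 (siControl replicate 1 left out) to 0.57. The difference of 5.33 windows with a read ran from 2.33 (siLa replicate 2 left out) to 7.83 (siLa replicate 3 left out).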
